A study of Mus with 8 samples.

Results

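The genes described here are 44 components of striated muscle: proteins of the thin and thick filaments and of the Z-disc, the calcium handling machinery, enzymes of muscle energy supply, and a pair of ubiquitin ligases of muscle wasting. They were taken from a fixed list of names, and every probe whose RefSeq transcript maps to a listed gene was collected. The list was chosen with earlier results of these data known. Comparisons of its members with all genes are therefore a description and not a test. All 44 genes were on the array, with 67 probes, and 43 of them were among the 16068 genes that passed the filter on dim signals. RNA came from whole tumours of Pan02 cells, a transplantable mouse pancreatic carcinoma line, grown under the skin of B6 mice and collected 36 to 40 days after transplantation. The 4 Control tumours grew in wild-type hosts. The 4 Mutant tumours grew in hosts that carried Ext1 flox/flox together with S100a4-Cre, so the heparan sulfate polymerase gene Ext1 is open to deletion in host cells that express S100a4, while the transplanted cells keep the gene in both groups. S100a4 is active in fibroblasts but also in some leukocytes and other stromal cells, which limits the model as one of fibroblasts alone.

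Skeletal muscle shortens when myosin heads of the thick filament pull on actin of the thin filament, whose troponin and tropomyosin open the binding sites once calcium arrives. Calcium leaves the sarcoplasmic reticulum through Ryr1, which the voltage sensor Cacna1s gates, and the pump Atp2a1 returns it. Many of these proteins exist as a fast and a slow isoform, encoded by separate genes that are used in fibres of different contraction speed. A thin sheet of such muscle, the panniculus carnosus, lies below mouse skin.

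Levels are given on a log2 scale on which 0 is the 75th percentile of the tumour's own array and a step of 1 is a factor of 2. Lists of levels run from tumour 1 to tumour 4 of a group, with n = 4 per group. Differences are Mutant minus Control on this scale, with the standard error from limma, a linear model that shares information on spread between genes. The arrays had between 61.5% and 67.2% of their probes well above background, no spot was saturated, and precision is limited by the number of arrays. The Ext1 probe, which is not known to lie in the deleted part and so checks nothing here, differed by 0.072, or -0.28 without Control 4. Of the epithelial cancer cell markers, Krt8 was between 5.77 and 6.94 in every tumour while Epcam was above background on no array. The mean level of the fibroblast markers was highest in Control 4, and that of the epidermal markers in Mutant 3. Single markers departed from this: Pdgfrb was lowest in Control 4, and Krt14 was highest in Mutant 2. In whole tumours, more cells of a type and more RNA per cell cannot be told apart.

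Most of the 44 muscle genes had higher levels in tumours of Mutant hosts, with wide differences between the tumours of each group and no gene past the threshold. Of the 43 tested members, 41 had a difference above 0, as did 52.4% of all genes, and 36 were at least 2-fold higher, against 2.23% of all genes. None was at least 2-fold lower, against 0.554% of all genes. Their median difference was 2.10, while that of all genes was 0.01. No member passed the limma test at an adjusted p under 0.05, nor did any other gene (0% called, adjusted p = 1.00 for each member). At an unadjusted p under 0.05, 25 members were higher and 0 lower, against 1.87% and 1.03% of all genes. That count of 25 was 4 when Control 3 was left out and 3 when Control 4 was. It was 4 on removal of Mutant 1, 2 on removal of Mutant 2 and 6 on removal of Mutant 4. Without Control 1 it was 17, but without Control 2 it was 27 and without Mutant 3 it was 35. The median difference stayed between 1.81 and 2.83 when any 1 tumour was left out. In none of the 43 members were all 4 Mutant tumours above all 4 Control tumours, which 0.716% of all genes showed, and in none did they all lie below, which 0.703% of all genes showed.

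**Figure D1:**
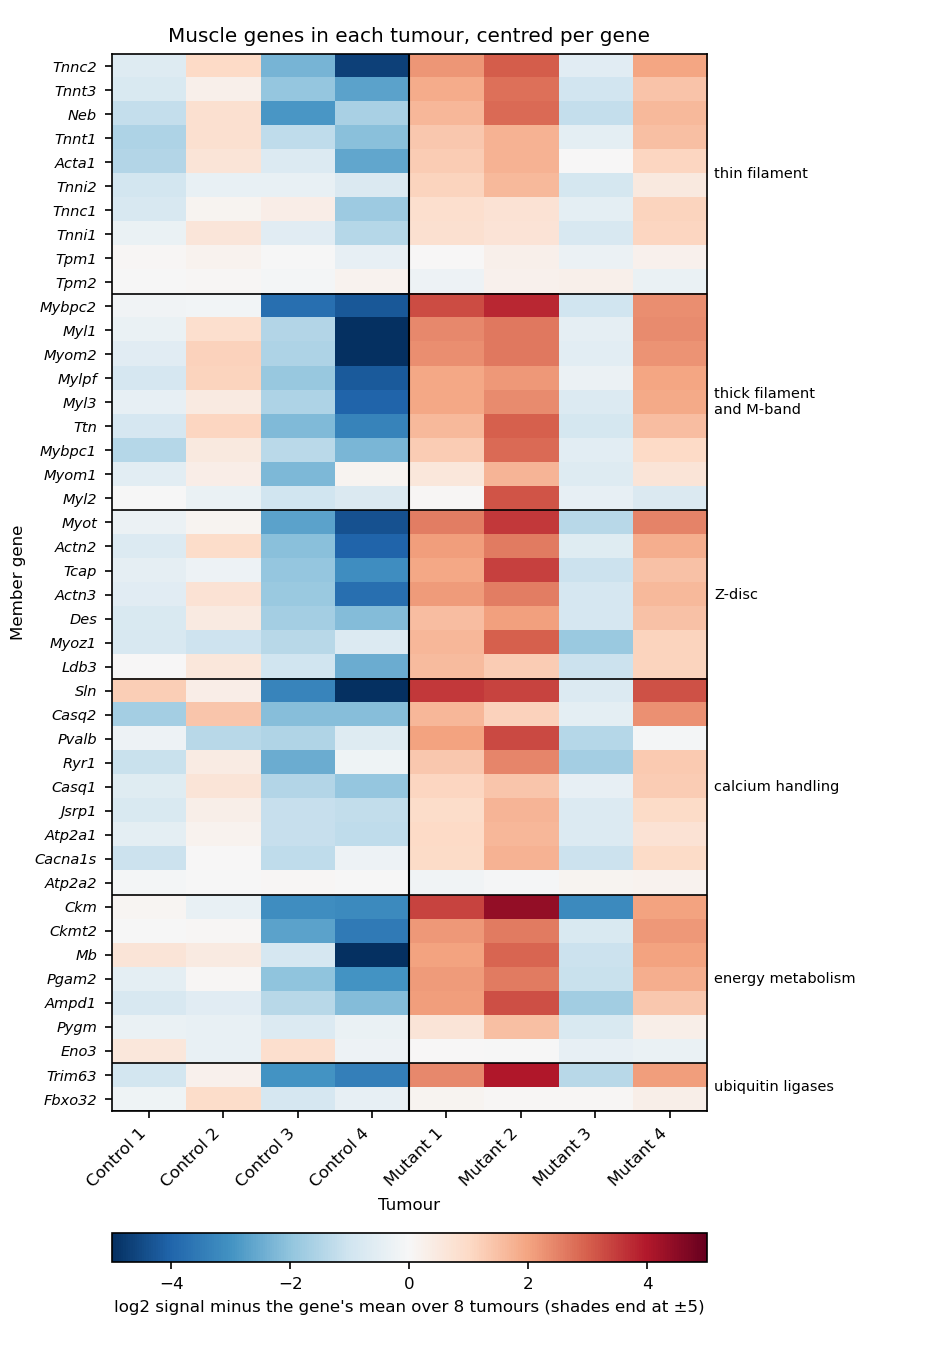
Log2 level of the 44 members (rows, grouped by class) in the 8 tumours (columns), each gene centred on its mean over the tumours; red is above and blue below that mean, with shades ending at 5. Mutant 1, 2 and 4 are red for most members, Control 4 is the darkest blue in many, and Mutant 3 looks like the Control tumours.

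The tumours fell in much the same order for most members. Among the 36 members that were at least 2-fold higher, Mutant 2 was the highest of all 8 tumours in 32, and Control 4 was the lowest in 28. Within the Control group, Control 2 was the highest in 28. Mutant 1, 2 and 4 were all above every Control tumour in 36 of the 43 tested members, against 2.83% of all genes, where Mutant 3 was set apart after its values were seen. Over the 36 members at least 2-fold higher, Mutant 3 never exceeded Control 2. It was above Control 3 in 30 of these and above Control 4 in 30. The mean centred level of the 43 members was -0.50, 0.30, -1.54 and -2.43 in Control tumours, compared with 1.51, 2.16, -0.79 and 1.29 in Mutant tumours. The spread among Control tumours was larger than the group difference for 29 of the 36 members. Leaving out 1 tumour moved the difference by over 1.5 times or turned its sign in 17 of the 43 members, and in 9 of them Control 4 was such a tumour. Another background correction, normexp, kept the sign of all 43 but moved 14 by over 1.5 times. Of these 14, 9 were among the 10 members not above background on all arrays. With normexp, 30 members were at least 2-fold higher and the median difference was 1.54. Over the 33 members above background on all 8 arrays the median difference was 1.70. The median range from lowest to highest tumour was 4.85 over the members and 0.80 over all genes.

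The arrays lay in 2 rows of 1 slide, with Control 1 and 2 and Mutant 1 and 2 in the first row and the other 4 tumours in the second. Within the first row, both Mutant tumours were above both Control tumours for 37 of the 43 members, against 22.5% of all genes. Within the second row the same held for 27 members, against 17.7% of all genes. It held in both rows for 24 members, against 1.84% of all genes. The mean difference of the members was 1.94 in the first row and 2.23 in the second, so it was of similar size in each, although both groups stood lower in the second row. With the row as a block, 30 members were higher at an unadjusted p under 0.05, against 1.81% of all genes, and 0 were called after adjustment (limma adjusted p = 1.00).

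The thin filament holds actin, the troponins, tropomyosin and nebulin. Of its 10 members 9 were above 0, with a median difference of 1.61, and 7 were at least 2-fold higher. Acta1, skeletal alpha-actin, was at 0.74, 2.88, 1.55 and -0.38 in Control tumours (mean 1.20 ± 1.37 SD) and at 3.49, 3.94, 2.23 and 3.30 in Mutant tumours (3.24 ± 0.72). Only Mutant 3 lay within the Control range, below Control 2. The difference in Acta1 was 2.05 ± 0.69 (SE), and an exact permutation test, two-sided, gave p = 0.0571, where 0.0286 is the smallest value possible.

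The troponin complex binds calcium through troponin C, blocks the actin filament through troponin I and holds on to tropomyosin through troponin T. Tnnc2, the fast troponin C, had the widest difference of the thin filament, and its levels were 1.32, 2.94, -0.37 and -2.74 in Control tumours and 4.15, 4.95, 1.36 and 3.92 in Mutant tumours. Tnnc2 differed by 3.31 with a standard error of 1.27, and by 2.30 without Control 4. Tnnc1, the troponin C of slow and cardiac fibres, was at -2.57, -1.63, -1.42 and -3.57 against -0.91, -1.03, -2.25 and -0.63, a difference of 1.10, or 0.67 without Control 4. Mutant 3 was below Control 2 and Control 3 for Tnnc1, and the other Mutant tumours were above all Control tumours.

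Among the troponins, Tnni2 had the narrowest Control spread. This fast form of troponin I was between 1.93 and 2.47 in all Control tumours and at 3.93, 4.46, 1.94 and 3.34 in Mutant tumours. So 3 Mutant tumours stood clear of a tight Control group, and Mutant 3 was inside it. Tnni2 differed by 1.17 with a standard error of 0.50, by 2.01 within the first row and by 0.34 within the second. Its slow counterpart Tnni1 differed by 0.87 with a standard error of 0.53, and by 0.54 without Control 4. A dimmer probe of Tnni1 differed by 1.37. Tnnt3 and Tnnt1, the fast and slow troponin T, differed by 2.54 and 2.06.

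The tropomyosins Tpm1 and Tpm2 lie along the actin filament, and both are made in many cell types outside striated muscle. Tpm1 was between 3.28 and 3.94 in all 8 tumours and differed by 0.086, a sign that turned without Control 4 (-0.038). Tpm2 had means of 2.89 in Control and 2.81 in Mutant tumours, and its dimmer probe differed the other way, by 0.55. Neb, nebulin, the ruler protein of the thin filament, was at -5.01, -3.01, -6.71 and -5.45 in Control tumours and -2.16, -0.99, -5.02 and -2.18 in Mutant tumours. Neb differed by 2.46 with a standard error of 1.01, or 1.08 with normexp, and Mutant 3 again lay among the Control tumours.

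**Figure D2:**
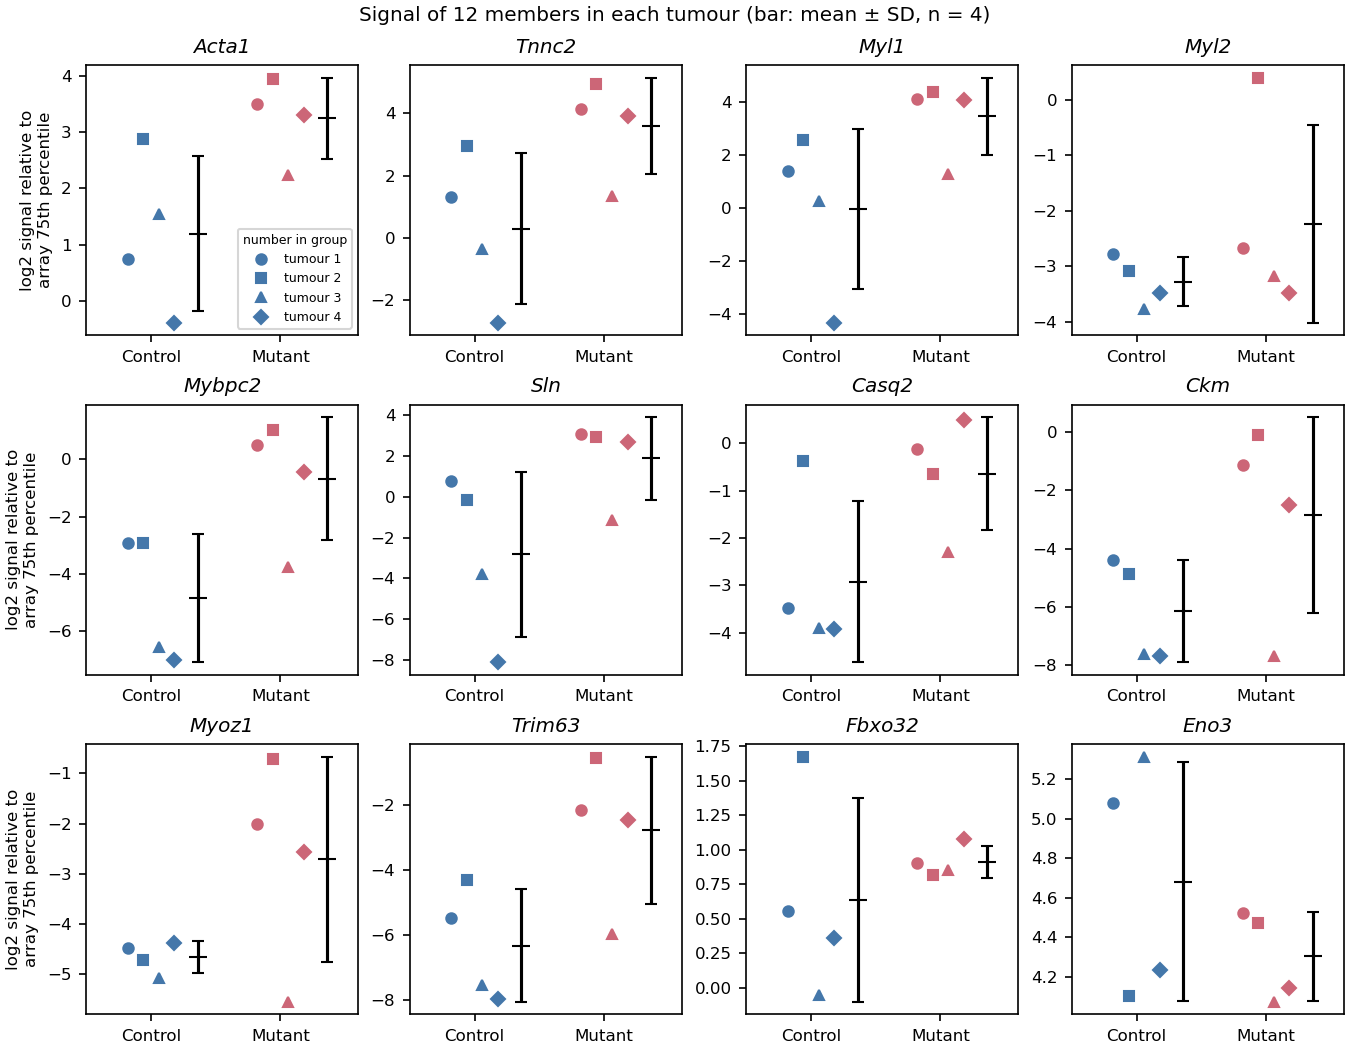
Log2 level of 12 members in each tumour, with 0 at the array's 75th percentile (points, shaped by tumour number) with the mean and SD of each group of 4 (bars); the vertical axes differ between panels. Tumour 3 of the Mutant group falls within or below the Control points in each panel, Myl2 is high in Mutant 2 alone, and Fbxo32 and Eno3 do not separate the groups.

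Thick filament and M-band members had a median difference of 2.75, and all 9 were at least 2-fold higher. Myl1, the fast essential light chain of myosin, was at 1.37, 2.56, 0.25 and -4.33 in Control tumours and 4.11, 4.35, 1.26 and 4.05 in Mutant tumours. Control 4 was far below the others, and the difference of 3.48 (standard error 1.47) was 2.05 without it. The other probes of Myl1 differed by 2.98 and 3.11. Mylpf, the fast regulatory light chain, differed by 2.90, but its dimmer probe differed by -0.37.

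Mybpc2 is the fast myosin-binding protein C. Its levels were -2.92, -2.90, -6.54 and -7.01 in Control tumours and 0.50, 1.02, -3.76 and -0.44 in Mutant tumours, and 2 of 4 Control arrays were above background. The difference in Mybpc2 was 4.17 with a standard error of 1.36, and with normexp it was 2.42. Mybpc1, the slow form, was at -3.44, -1.52, -3.39 and -4.31 against -0.77, 0.82, -2.55 and -1.05, a difference of 2.28. In both genes Mutant 3 lay within the Control range.

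Myl2, the regulatory light chain of slow fibres and of heart ventricle, departed from the common order. It was at -2.77, -3.09, -3.76 and -3.48 in Control tumours and at -2.68, 0.41, -3.18 and -3.48 in Mutant tumours. Mutant 2 alone was high, and Mutant 1, 3 and 4 were near the Control tumours. Its difference of 1.04 (standard error 0.81) was 0.16 without Mutant 2. Myl3, the essential light chain of the same fibres, did not share this and differed by 2.75, with Mutant 1, 2 and 4 at 0.68, 1.09 and 0.64.

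Ttn, titin, the giant spring that spans from Z-disc to M-band, was at -2.36, -0.45, -3.74 and -4.87 in Control tumours and 0.09, 1.45, -2.40 and -0.0015 in Mutant tumours. Ttn differed by 2.64, and a second probe above background on 7 arrays gave 2.49. Myom2, an M-band protein that crosslinks myosin filaments in fast fibres, had a difference of 3.35 ± 1.45 (SE), and of 1.98 without Control 4, where it was not above background. Myom1, its relative, differed by 1.13, or 0.58 without Control 3, and Control 4 (-2.73) was above Mutant 3 (-3.52) for this gene.

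All 7 Z-disc members were at least 2-fold higher, with a median difference of 2.75. Tcap, which caps titin, was at -1.11, -0.95, -2.59 and -3.76 in Control tumours and 1.25, 2.73, -1.74 and 0.78 in Mutant tumours. Actn2, the alpha-actinin found in all fibre types, differed by 2.95 (standard error 1.11) and Actn3, the alpha-actinin of fast fibres, by 2.75 (1.08). The centred difference between them stayed within -0.25 and 0.24 in all 8 tumours. Myot, myotilin, differed by 3.58, or 1.72 with normexp, with 2 of 4 Control arrays above background.

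Myoz1, a calcineurin-binding Z-disc protein of fast fibres, had a narrow Control group at -4.48, -4.72, -5.09 and -4.38 and Mutant levels of -2.01, -0.71, -5.56 and -2.58. Mutant 3 was below every Control tumour for Myoz1, the only one of the 36 members where this was so, and the probe was not above background there. The difference in Myoz1 was 1.95 with a standard error of 0.91, and it was 3.24 within the first row, 0.67 within the second, 1.28 without Mutant 2 and 1.13 with normexp. Des, desmin, the intermediate filament that also occurs in smooth muscle, differed by 2.10, and Ldb3, a Z-disc scaffold, by 1.46, or 0.87 without Control 4 and 0.66 with normexp.

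**Figure D3:**
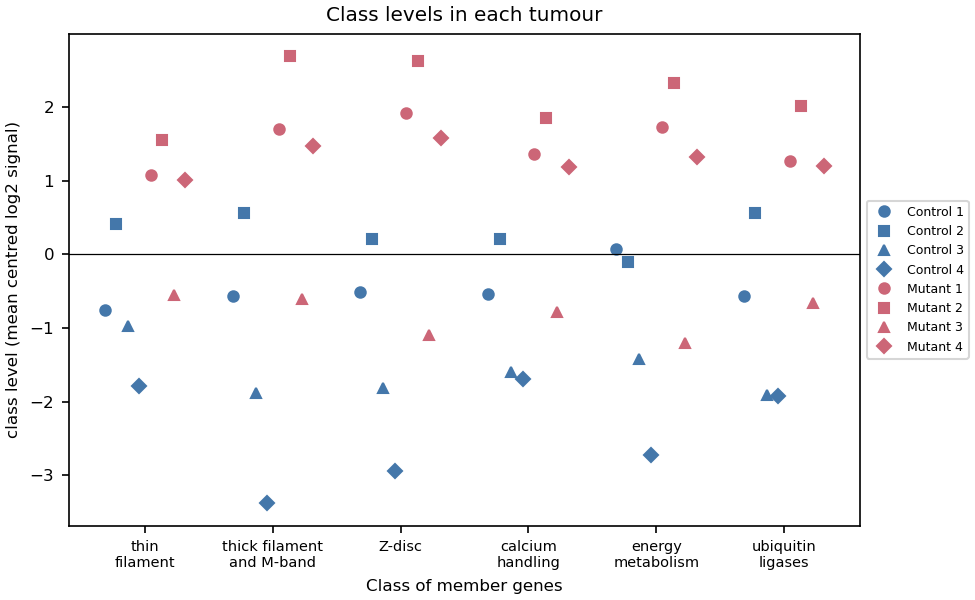
Mean centred log2 signal of the tested members of each class (columns) in each tumour; blue is Control, red is Mutant, and the symbol marks the tumour number. In every class Mutant 1, 2 and 4 lie above all Control tumours, and Mutant 3 lies within the Control range.

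Of the 9 calcium handling members all were above 0 and 8 were at least 2-fold higher, with a median difference of 1.66. Cacna1s, the voltage sensor of the transverse tubule, differed by 1.28 and Ryr1, the release channel, by 1.70. Ryr1 was at -3.62, -2.08, -4.99 and -2.71 in Control tumours, so that Control 4, lowest for most members, was the second highest of its group here. Jsrp1, a protein of the junction between the tubule and the reticulum, differed by 1.44.

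Sln, sarcolipin, a small peptide that uncouples the calcium pump, varied most of all members. It was at 0.78, -0.14, -3.77 and -8.12 in Control tumours and 3.07, 2.91, -1.15 and 2.70 in Mutant tumours, a range of 2328-fold between Mutant 1 and Control 4, where the probe was not above background and the low end is therefore uncertain. Its difference was 4.70 with a standard error of 1.99, and 2.93 without Control 4. Atp2a1, the fast pump, differed by 1.35 ± 0.53 (SE). Atp2a2, the pump of slow fibres and heart that most other cells also carry, was between 1.44 and 1.81 in every tumour and differed by 0.034. A dimmer probe of Atp2a2, singled out after its values were seen, differed by 0.45. Control tumours were between 0.11 and 0.56 for this probe and Mutant tumours between 0.61 and 0.96. The remaining Atp2a2 probe, dimmer still, differed by 0.028.

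Calsequestrin stores calcium inside the reticulum. Casq1, the form of fast fibres, was at -3.50, -2.25, -4.36 and -4.82 in Control tumours and -1.82, -1.52, -3.33 and -1.62 in Mutant tumours. Casq2, the form of slow and cardiac fibres, was at -3.48, -0.38, -3.90 and -3.92 against -0.13, -0.65, -2.29 and 0.49. Control 2 stood with the high Mutant tumours for Casq2 and above Mutant 2. Pvalb, parvalbumin, a calcium buffer of fast fibres, did the reverse: Control 2 was low at -3.01 and only Mutant 1 (0.40) and Mutant 2 (1.68) were well above the Control tumours. Pvalb differed by 1.89 with a standard error of 0.97, by 3.47 within the first row, by 0.30 within the second and by 1.10 without Mutant 2.

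Muscle energy genes split into a variable set and an exception. Of the 6 tested members 5 were above 0, with a median of 2.83, and 4 were at least 2-fold higher. That median was 1.79 without Control 4, 1.32 with normexp and 0.85 over members above background on all 8 arrays. Ckm, the muscle creatine kinase that regenerates ATP from phosphocreatine, was at -4.39, -4.88, -7.62 and -7.68 in Control tumours and -1.12, -0.12, -7.67 and -2.50 in Mutant tumours. Mutant 3, Control 3 and Control 4 were not above background for Ckm, and its difference of 3.29 had a standard error of 1.66 and was 1.59 with normexp. Its mitochondrial counterpart Ckmt2, above background on 2 of 4 Control arrays, differed by 3.09 with a standard error of 1.05, or 1.06 with normexp.

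Mb, the oxygen store myoglobin, was at -1.33, -1.53, -2.82 and -8.10 in Control tumours and 0.05, 0.95, -3.02 and 0.05 in Mutant tumours. Without Control 4, where it was not above background, the difference in Mb was 1.40 in place of 2.95. Pgam2, the muscle phosphoglycerate mutase, differed by 2.72. Pygm, the muscle glycogen phosphorylase, differed by 0.85, or 0.49 without Mutant 2, with a narrow Control group between -2.32 and -1.97. A dimmer probe of Pygm differed by 2.26 but was above background on only 2 Control and 3 Mutant arrays. Eno3, the enolase named for muscle, was bright in every tumour, at 5.08, 4.10, 5.31 and 4.23 in Control and 4.52, 4.47, 4.07 and 4.15 in Mutant tumours. It differed by -0.38 with a standard error of 0.29, or -0.17 without Control 3, and the order of the tumours was not that of the sarcomere genes: Control 3 was the highest and Mutant 3 the lowest.

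Ampd1, the AMP deaminase of skeletal muscle, was the member that did not pass the filter, being above background on 0 Control arrays and 3 Mutant arrays. Mutant 1, 2 and 4 read -3.95, -2.80 and -4.69. The Mutant mean was at least 1.94-fold higher than the Control group, where each Control array counts at the lowest signal of a probe well above background or at its own signal if that is higher.

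Trim63 and Fbxo32 encode MuRF1 and atrogin-1, ligases that tag muscle proteins for breakdown during atrophy, and they behaved differently. Trim63 was at -5.46, -4.31, -7.55 and -7.97 in Control tumours and -2.14, -0.54, -5.95 and -2.44 in Mutant tumours, in the order of the sarcomere genes. It was above background on 2 Control and 3 Mutant arrays, and its difference of 3.55 was 1.36 with normexp. Fbxo32, which is also made outside muscle, was at 0.55, 1.67, -0.05 and 0.36 in Control and between 0.81 and 1.08 in all Mutant tumours. Its difference of 0.28 (standard error 0.34) was 0.62 without Control 2, the tumour with the highest level, and 0.05 without Control 3.

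The 5 members that other tissues also make (Tpm1, Tpm2, Des, Atp2a2 and Fbxo32) had a median difference of 0.086, and Des was the only one at least 2-fold higher. The other 38 tested members had a median of 2.37, with 35 at least 2-fold higher. Eno3 (-0.38) was counted among the 38. This split was made with earlier results of these data known, so it is a description only.

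Each fast isoform was set against its slow counterpart, or for Actn3 against Actn2, which all fibre types carry. Fast isoforms had the larger difference in 7 of 9 such pairs, and the median of fast minus slow was 0.74. The pairs were widest apart for troponin C (Tnnc2 and Tnnc1, 2.21), myosin-binding protein C (Mybpc2 and Mybpc1, 1.90), the regulatory light chains (Mylpf and Myl2, 1.86) and the calcium pumps (Atp2a1 and Atp2a2, 1.32). They were closer for the essential light chains (Myl1 and Myl3, 0.74), troponin T (0.49) and troponin I (0.30). Single tumours carried much of these: the essential light chain value was 0.18 without Control 4, that of troponin T 0.22 without Mutant 2, and that of troponin I 0.027 without Control 2. The value of the regulatory light chains was 1.01 without Control 4. Within the first slide row Mylpf differed by 1.91 and Myl2 by 1.80, against 3.89 and 0.29 within the second. With the mean of each gene's probes Mylpf differed by 1.26 and Myl2 by 1.04. The choice of probe mattered for the troponins too. A dimmer probe of Tnni1 differed by 1.37, more than Tnni2 (1.17), so with it the slow troponin I led. Dimmer probes of Tnnt3 differed by 2.93 and 3.03, against 2.54 for the probe used. For alpha-actinin and calsequestrin fast minus slow was below 0, at -0.20 and -0.62. With the brightest probe of each gene, the number of pairs in which the fast form led was 7 with any 1 tumour left out. Not every pair kept its sign between the slide rows. Within the second row Tnni2 differed by 0.34 and Tnni1 by 1.13, so the slow troponin I led there. Actn3 (2.27) was slightly ahead of Actn2 (2.22) in the first row, against 3.22 and 3.67 in the second. The tumours of the groups overlapped in all 9 fast minus slow contrasts, and these values are a description with no test. The median contrast was 0.44 with the mean of each gene's probes, 0.63 within the first slide row and 1.11 within the second.

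**Figure D4:**
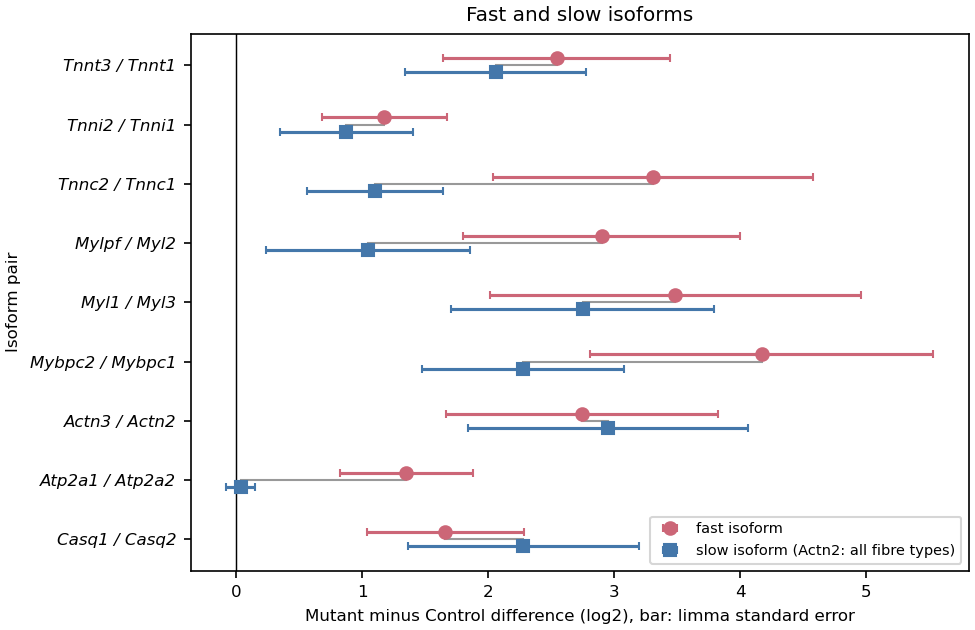
Mutant minus Control difference (log2) of the fast gene (red circle) and its slow or, for Actn2, general partner (blue square) in 9 isoform pairs, with limma standard errors as bars. The fast gene lies to the right in 7 pairs, and the error bars of most pairs overlap. Both genes of a pair were read in the same tumours, so the bars do not give the uncertainty of fast minus slow.

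The contrast varied between tumours of one group as well. For troponin C, fast minus slow centred on its mean was 0.19, 0.88, -2.64 and -2.86 in Control tumours and 1.37, 2.28, -0.087 and 0.85 in Mutant tumours. Control 3 and 4, with the lowest mean level of the members, had the least fast relative to slow troponin C. For calsequestrin the contrast was 1.10, -0.75, 0.67 and 0.22 in Control tumours and -0.58, 0.25, 0.08 and -0.99 in Mutant tumours, so that here Control 1 had the most fast relative to slow.

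Mean levels of the other muscle lists were highest in Mutant 2, except for the myogenic list (Mutant 4), and lowest in Control 4, except for the further energy list (Control 3). All 7 myosin heavy chains were at least 2-fold higher, with a median of 3.45, or 1.79 without Control 4. Myh8, the perinatal chain, was at 1.34, 1.77, -1.26 and -2.86 in Control tumours and 3.80, 4.62, 0.97 and 3.39 in Mutant tumours. Myh4, of the fastest fibres, differed by 3.99 and Myh1 by 4.14, the latter with 3 of 4 Control arrays above background and 2.26 without Control 4. Of 24 further sarcomere genes tested 19 were above 0 and 15 at least 2-fold higher (median 1.63). Among them were Smpx (2.55, or 1.77 without Control 4), Tmod4, a pointed-end cap of actin (1.04), and Klhl40, a stabiliser of nebulin (1.91). Smpx was above background on 2 of 4 Control arrays, and Klhl40 on 1 Control and 3 Mutant arrays.

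Of 17 further triad and calcium genes 16 were above 0 and 9 at least 2-fold higher (median 1.07), with the calcium channel subunit Cacng1 at 1.36, the reticulum protein Hrc at 1.07 and sarcalumenin, Srl, at 2.33, or 1.55 without Control 4. Of 19 further energy genes 14 were above 0 and 6 at least 2-fold higher (median 0.36, or 0.23 without Mutant 1), with Pdk4, a brake on glucose oxidation, at 2.68, the muscle cytochrome oxidase subunit Cox8b at 3.13 and Art1 at 2.30. Art1 was above background on 2 of 4 Control arrays, and Srl, Pdk4 and Cox8b on 3. Each gene named from these lists had a limma adjusted p of 1.00.

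Genes of muscle stem cells and of myogenic control were only in part aligned with the sarcomere genes. Of 10 tested 6 were above 0 and 3 at least 2-fold higher, with a median of 0.31 that lay between 0.11 and 0.52 with 1 tumour left out. Myf6, a factor of mature fibres, differed by 2.70, or 1.83 without Control 4, with 2 of 4 Control arrays above background. Myog, which drives myoblasts into fusion, differed by 2.66. Without Control 4 the difference was 1.59 for Myog. Its levels were -3.45, -0.62, -3.64 and -6.86 in Control tumours and -0.78, -0.38, -2.62 and -0.14 in Mutant tumours, so Control 2 was above Mutant 1. Cdh15, a cadherin of myoblasts, differed by 2.23, or 1.00 without Control 4, its lowest tumour. Pax7 and Myf5, which mark satellite cells, were above background on no array.

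**Figure D5:**
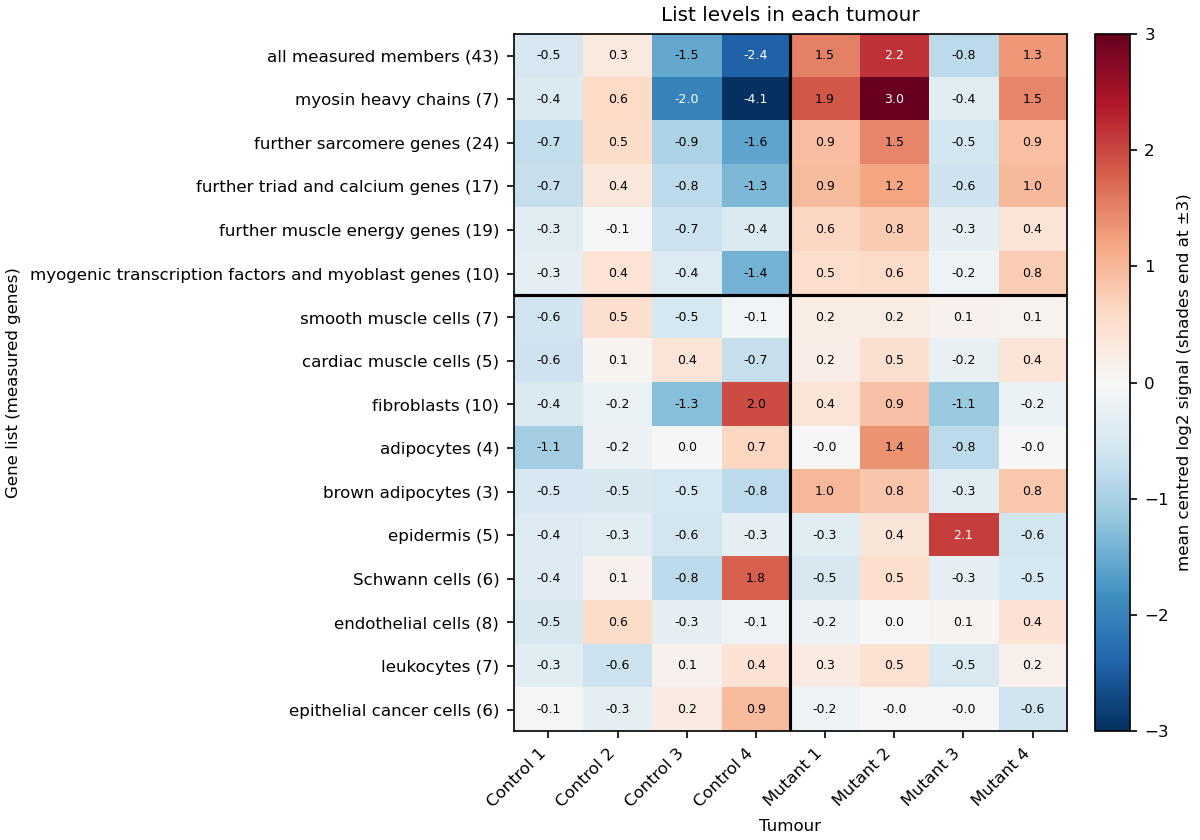
Mean centred log2 signal of the tested genes of each list (rows, number of genes in brackets) in each tumour (columns); the upper block holds muscle lists, the lower block markers of other cell types. Most muscle lists are highest in Mutant 2 and lowest in Control 4, while fibroblast and Schwann cell markers peak in Control 4 and epidermal markers in Mutant 3.

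Markers of other contractile cells were examined beside the muscle genes, since several members are shared with them. Smooth muscle markers, 7 of 10 tested, had levels of -0.59 to 0.51 in Control and 0.12 to 0.23 in Mutant tumours and a median difference of 0.33, with Cnn1 at 0.96, Acta2 at 0.89 and Tagln at 0.66. Of the 7, 5 were higher and 2 lower, with Myh11 lowest at -0.40, and without Control 1 Acta2 was at 0.36 and Tagln at 0.28. None of the 7 was at least 2-fold higher. Cardiac markers, 5 of 9 tested, had levels of -0.69 to 0.38 in Control and -0.23 to 0.48 in Mutant tumours and a median of 0.05, with 3 higher and 2 lower. Tnnt2, the cardiac troponin T that immature skeletal muscle also makes, differed by 2.26, or 0.90 without Control 4, while Tnni3 differed by 0.18, Nppb by -0.36, and Ryr2 and Pln were above background on no array.

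Medians of the remaining lists often turned on 1 tumour. The epidermal median of 0.80 was 0.020 without Mutant 3, and without Control 4 the epithelial cancer cell median of -0.50 was -0.29, the fibroblast median of 0.05 was 0.88 and the Schwann cell median of -0.23 was 0.17. Fibroblast markers, all 10 tested, had mean levels of -1.28 to 1.97 in Control and -1.12 to 0.88 in Mutant tumours. Their mean was highest in Control 4, where that of the muscle members was lowest, but Pdgfrb was lowest there and Dpt was highest in Mutant 1. Of the 10 fibroblast markers, 5 were higher and 5 lower, with differences from -1.94 (Pi16) to 1.08 (Dpt). Adipocyte markers, 4 of 8 tested, ranged from -1.05 to 0.65 and from -0.78 to 1.36, and Adipoq and Plin1 did not pass the filter. Endothelial markers, 8 of 8, ranged from -0.47 to 0.56 and from -0.18 to 0.44, and leukocyte markers, 7 of 8, from -0.63 to 0.43 and from -0.47 to 0.47. Epidermal markers, 5 of 8, ranged from -0.55 to -0.30 in Control and from -0.55 to 2.08 in Mutant tumours, with Krt1 and Dsg3 above background on no array, and Schwann cell markers, 6 of 6, from -0.79 to 1.79 and from -0.52 to 0.52. Epithelial cancer cell markers, 6 of 8, ranged from -0.30 to 0.94 and from -0.59 to -0.02, and 5 of the 6 were lower in Mutant tumours, with Krt8 at -0.53 and Krt18 at -0.47. The part of these cell types in the muscle result was not tested.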

How the data were processed

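RNA of 8 tumours was hybridised to 1-colour (Cy3) Agilent arrays, 1 per tumour. Agilent Feature Extraction 10.7.3.1 wrote the intensity of each spot, per the file headers, while the submitters' processing notes name version 9.1. The processed signal is background-subtracted and detrended within the array, per the file headers. The 0 or 1 flags deposited beside it have no unit (other). The deposited value table holds intensity as well, on a linear scale: 99.5% of values equal the scanner signal within 0.01%, column medians lie between 52.8 and 61.8, and no scaling or direction enters.

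Outlier spots were left out, spots of a probe averaged, and log2 signals centred on the array's 75th percentile. RefSeq accessions matched to a GRCm38.p6 gene table named 32994 of 56605 probes. A probe was kept if 4 or more of the 8 arrays had it well above background, the brightest per gene (on average) was used, and 16068 genes were compared with limma 3.58.1 (R 4.3.3), group as the only term, Benjamini-Hochberg over all genes. Exact permutation p-values for single genes used all 70 arrangements, two-sided. The design text gives 4 hosts per group, treated as independent. The members, classes and lists were chosen with earlier results of these data known. Named genes are all members and up to 3 genes of smallest p per other list; list genes that were not tested, and Myh11, are named besides, picked after their values were seen. The 12 genes plotted by tumour were picked after their values were seen. No coordinates are given, because the array names another assembly than the gene table. The limma fit was tested on simulated data with independent genes. The check there was that mean estimated differences matched those put in, and it did not cover the calls. Python 3.11.15 and pandas 2.3.3 handled tables.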

Additional observations from a re-analysis of the deposited data

Results flagged for a closer look

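In groups of 4 tumours, 10 of 86 member and group combinations had 1 tumour separated from the others by more than Dixon's critical value, where chance gives about 1 in 20 and the members are not independent of each other. Mutant 3 was below the other Mutant tumours for Mylpf (0.44, others 2.68 to 2.89), Myl1 (1.26, others 4.05 to 4.35), Myl3 (-1.96, others 0.64 to 1.09), Myom2 (-1.75, others 1.03 to 1.43), Ldb3 (-4.20, others -2.01 to -1.56), Casq1 (-3.33, others -1.82 to -1.52), Sln (-1.15, others 2.70 to 3.07) and Ckmt2 (-5.20, others -2.29 to -1.86). Control 2 was above the other Control tumours for Casq2 (-0.38, others -3.92 to -3.48). Control 3 was below the others for Pygm (-2.32, others -2.02 to -1.97).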

How the results depend on the processing

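No member was called under any setting run (lowest limma adjusted p of a member 0.584, without Mutant 3), and 943 member values under other settings kept their sign while 12 did not. Signs turned for Tpm1 (-0.020 with the mean of probes, -0.15 with probe A_55_P2187053, -0.038 to 0.20 with 1 tumour left out, the lowest without Control 4), Tpm2 (0.24 with the mean of probes, 0.55 with probe A_51_P357013, -0.17 to 0.027 with 1 tumour left out, above 0 without Mutant 1 or Mutant 4), Atp2a2 (-0.053 within slide row 1, -0.018 to 0.10 with 1 tumour left out, below 0 without Mutant 3 or Mutant 4), Fbxo32 (-0.26 within slide row 1) and Mylpf (-0.37 with probe A_55_P2058591); the cause was not tested. The energy median was 1.32 with normexp and 0.85 over members above background on all 8 arrays, and the ligase value was then 0.28, since fewer genes were tested. Genes at an unadjusted p under 0.05 numbered 467, 1280 with array weights, and 195 (without Mutant 1) to 972 (without Control 2) with 1 tumour left out, also 305 without Control 1 and 257 without Mutant 4. Same-numbered tumours did not pair (correlations of deviations 0.08, -0.31, 0.05 and -0.31); with the replicate number as a block 371 genes and 30 members were at an unadjusted p under 0.05 and 0 were called. Signals near background limit the low end of 10 members not above it on all arrays.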

Other observations

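Among markers of brown adipocytes (median difference 0.88, 3 of 5 tested), cells that share part of their oxidative metabolism with muscle, Dio2, which activates thyroid hormone and is also made in muscle, was at 1.02, -1.11, 0.99 and -0.89 in Control 1 to 4 and at 3.32, 1.99, -0.53 and 2.70 in Mutant 1 to 4. Mutant 3 again lay within the Control range. Dio2 differed by 1.86 with a standard error of 0.90 (limma adjusted p = 1.00). Cidea, a lipid droplet protein, differed by 0.88 with 1 of 4 Control arrays above background, and Ppara, a regulator of fatty acid oxidation, differed by 0.74. Ucp1, which defines brown adipocytes, was above background on no array.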
